A study of Mus musculus with 2 samples.

Results

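The mouse miR-378 genes Mir378a, Mir378b and Mir378c were described in the adrenal gland. They were picked out by gene name, with earlier results of these data known, and are 3 of the 2202 miRNA genes in the deposited microRNA-seq tables. MicroRNA-seq selects very short RNAs, the size of mature microRNAs (miRNAs), and counts their reads. The tissue was the adrenal gland of B6CASTF1/J females at 36 days of age, an F1 cross between laboratory and wild-derived mice, with no treatment named. They formed 1 group of 2 libraries, biological replicates 1 and 2, which the labels trace to separately numbered females but give 1 donor identifier. The spread between the libraries may therefore not be a spread between animals, and no second tissue, age or treatment was there for comparison. The libraries differed in depth, with 5397603 sense miRNA counts in replicate 1 against 3029977 in replicate 2.

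A miRNA is cut from a hairpin transcript, and bases 2 to 8 of the mature strand, the seed, do most of the pairing with target messages. Mir378a lies in an intron of Ppargc1b, the gene of the coactivator PGC-1beta, which drives mitochondrial and fatty acid oxidation genes. Mice that lack the miRNAs of this locus were reported to have raised oxidative metabolism, and Crat, an enzyme of fatty acid metabolism in mitochondria, is a known target. In the adrenal cortex, steroid synthesis begins inside mitochondria, where the cholesterol side chain is cleaved.

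Mature sequences are shown first because they set which reads can be told apart. The RefSeq table of miRNA sequences (GRCm38.p6) held Mir378b, Mir378c and the further annotated gene Mir378d, but not Mir378a. Capitals mark the seed.
miR-378b (chr11:88352839-88352858, plus strand): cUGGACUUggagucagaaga
miR-378c (chr14:46954905-46954925, minus strand): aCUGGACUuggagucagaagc
miR-378d (chr10:126710355-126710376, minus strand): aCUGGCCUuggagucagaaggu
Positions here are counted from 1 at the 5′ end of miR-378c. Against miR-378c, miR-378b starts 1 base later and differs by C21A in the 20 aligned bases. The later start gives it another seed, UGGACUU in place of CUGGACU. Against miR-378c, miR-378d differs by A6C, which falls in the seed, and by C21G. None of these 3 seeds was shared by another of the 1738 mature sequences in the table, which lacks Mir378a. The Mir378a hairpin does hold the first 20 bases of miR-378c and the first 19 of miR-378b, their seeds included. Whether the mature strand of Mir378a has either seed was not tested.

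The hairpins of Mir378b and Mir378c are shown because their mature strands lie on different arms. Capitals mark the mature strand.
Mir378b hairpin (chr11:88352773-88352864, plus strand): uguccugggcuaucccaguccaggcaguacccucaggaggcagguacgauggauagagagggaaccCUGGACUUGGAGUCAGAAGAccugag
Mir378c hairpin (chr14:46954830-46954928, minus strand): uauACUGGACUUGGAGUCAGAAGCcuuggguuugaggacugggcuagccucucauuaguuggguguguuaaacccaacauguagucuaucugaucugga
The mature strand takes bases 67 to 86 of the 92 in Mir378b, on the 3′ arm. In Mir378c it takes bases 4 to 24 of 99, on the 5′ arm.

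The 3 genes also differ in where they lie (mm10, GENCODE M21). Mir378a (ENSMUSG00000105200.1, chromosome 18, 61397835 to 61397900, minus strand) is in intron 1 of Ppargc1b, on the strand of its host. Its end nearest the host's start is 2531 bases from it. Mir378b (ENSMUSG00000092985.1, plus strand) lies within intron 11 of Msi2, an RNA-binding protein gene, but on the other strand. Mir378c (ENSMUSG00000099036.1, minus strand) is likewise opposite to an intron of Samd4, a gene of a translational repressor. Mir378d (ENSMUSG00000098756.1, chromosome 10, 126710282 to 126710391, minus strand) overlapped no annotated gene.

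With reads that mapped to several places left out, almost all sense counts of the 3 genes fell on Mir378a. It had 299149 sense counts in replicate 1 and 204161 in replicate 2. These were 55423 CPM (95% Wilson interval 55230 to 55616) and 67380 CPM (67099 to 67663), where CPM scales a gene's sense count to a library total of 1000000. The mean was 61402 ± 8455 CPM (SD, n = 2), or 6.14% ± 0.846 of all sense miRNA counts. It stood 4th in replicate 1 and 3rd in replicate 2.

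Mir378c came next, with 315 counts in replicate 1 and 206 in replicate 2, or 58.4 CPM (52.3 to 65.2) and 68.0 CPM (59.3 to 77.9). Its mean was 63.2 ± 6.81 CPM, and 40.7% of the 339 detected genes had a lower mean. Mir378b had 19 and 12 counts, or 3.52 CPM (2.25 to 5.50) and 3.96 CPM (2.27 to 6.92), with a mean of 3.74 ± 0.311 CPM. Only 1.77% of the detected genes had a lower mean. All 3 passed the minimum of 10 sense counts in both libraries, which 15.4% of the 2202 genes passed, though Mir378b did so narrowly in replicate 2.

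The order Mir378a, Mir378c, Mir378b was the same in both libraries, with intervals that did not overlap. Of the counts of the 3 genes, Mir378a held 99.8885% in replicate 1 (99.8759 to 99.8998) and 99.8933% in replicate 2 (99.8782 to 99.9066). It had 950 counts for each count of Mir378c in replicate 1 and 991 in replicate 2. Mir378c in turn had 16.6 and 17.2 counts for each count of Mir378b. Mir378d, with 160 and 137 counts, had 29.6 and 45.2 CPM, between Mir378b and Mir378c in both libraries.

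**Figure D1:**
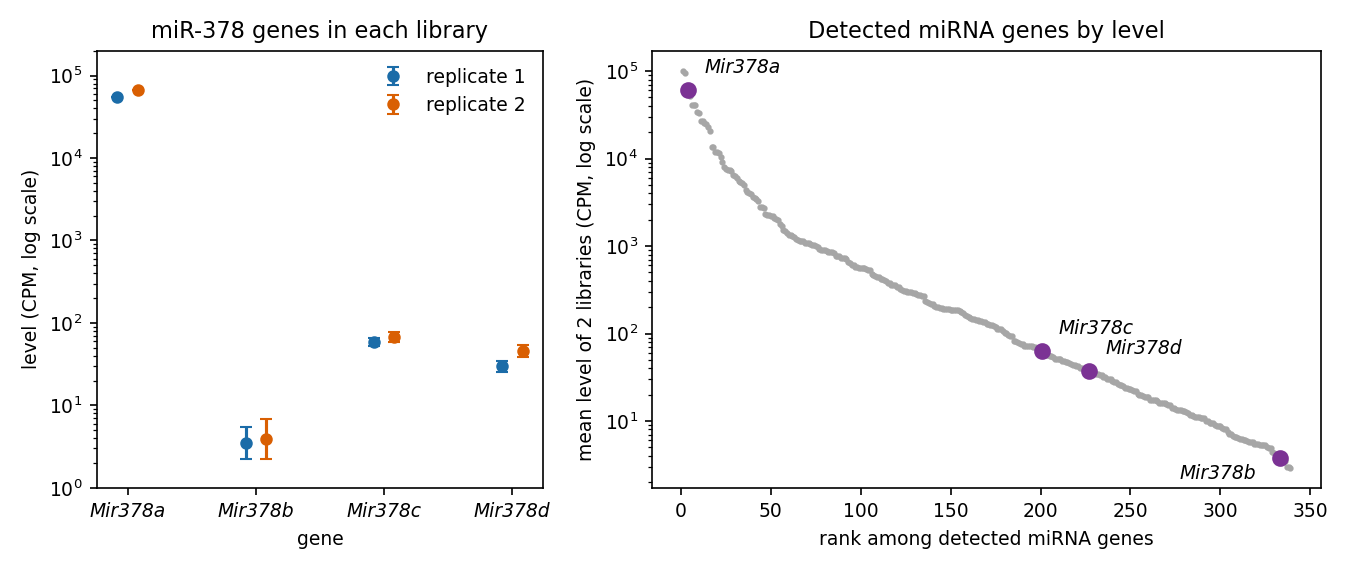
Left, the level of each miR-378 gene in CPM on a log axis, for replicate 1 (blue) and replicate 2 (orange), with 95% Wilson intervals. Right, the mean level of the 339 detected miRNA genes on a log axis against their rank, with the miR-378 genes in purple: Mir378a sits at the head of the curve, Mir378c and Mir378d past its middle and Mir378b near its end.

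These levels are of reads that mapped to 1 place, and the miR-378 genes share long stretches. The Mir378a and Mir378c hairpins share 20 unbroken bases, and Mir378a and Mir378b share 19, as do Mir378b and Mir378c. The first 20 bases of miR-378c, whose sequence is given above, occur in 2 of the 2202 annotated hairpins, those of Mir378a and Mir378c, and only the full 21 bases occur in Mir378c alone. The first 19 bases of miR-378b occur in all 3 hairpins, and its full 20 bases in Mir378b alone. For miR-378d the first 15 bases already occur in 1 hairpin.

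A read that ended before its last distinguishing base would match several hairpins equally well. Reads that mapped to several places made up 28.5% of replicate 1 and 30.6% of replicate 2, and were counted for no gene. They were 13.3 and 11.3 times as many as the counts of Mir378a, and how many came from miR-378 loci was not tested. Nor was it tested how many counts of Mir378b, Mir378c and Mir378d are reads of Mir378a changed at 1 or more bases. Mir378c had 0.105 counts for every 100 of Mir378a in replicate 1 and 0.101 in replicate 2.

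The counts of Mir378a depended on strand. An annotated miRNA gene of 113 bases, Gm25301, lies across it on the plus strand (61397813 to 61397925). With strand ignored Mir378a had 0 counts in both libraries, and its reads were entered as ambiguous. They made up 24.8% of the 1207168 ambiguous reads of replicate 1 and 39.5% of the 516801 of replicate 2. Gm25301 itself had 0 sense counts in both libraries. Mir378b, Mir378c and Mir378d had the same counts with and without strand and 0 antisense counts.

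Mir378a was set among the genes nearest to it in level. Mir126a of endothelial cells (133209 and 69285 CPM) and Mirlet7g (90540 and 101505 CPM) were above it in both libraries. Mirlet7b, another gene of the let-7 family of developmental regulators, had 68707 CPM in replicate 1, above Mir378a, and 61387 CPM in replicate 2, below it. Mir10a of a Hox cluster (43451 and 61349 CPM), Mirlet7i (39256 and 43746 CPM) and Mir143 of smooth muscle (28989 and 53980 CPM) were below it in both. Mir378a thus kept its place against 5 of these 6 genes and changed places with Mirlet7b.

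The pooled coefficient of variation between the libraries, from edgeR's common dispersion, was 41.6%. At that spread the geometric means of a pair of genes need to differ by more than 2.26-fold to be ranked. Within this limit of Mir378a lay 9 other genes, 3 with a higher mean and 6 with a lower one, so its exact rank was not fixed by these libraries. The rank also leaves out multimapped reads, which were 13.3 (replicate 1) and 11.3 (replicate 2) times the counts of Mir378a. How far they would change the order of the genes was not tested. Levels were not divided by length, on the assumption that a read covers 1 mature miRNA whole. Counts per annotated base of hairpin, 66 for Mir378a, would place it 3rd.

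**Figure D2:**
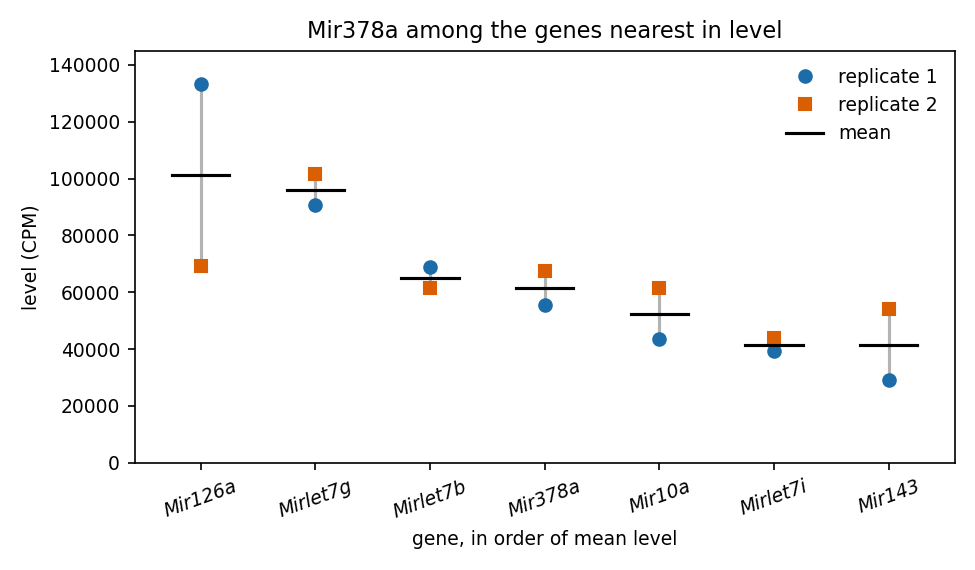
Level in CPM of Mir378a and of the 3 genes on either side of it in mean level, for replicate 1 (blue circles) and replicate 2 (orange squares), with the mean of the 2 libraries as a black bar. Mir378a, at 55423 and 67380 CPM, lies below Mirlet7b in replicate 1 and above it in replicate 2, and above Mir10a in each library.

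The libraries were then compared with each other, which asks how well the miR-378 levels repeat and not how conditions differ. The exact binomial test called 58.5% of the 434 genes tested against counting error alone, with 30.2% higher in replicate 1 and 28.3% in replicate 2. Of the miR-378 genes, Mir378a and Mir378c were called, both higher in replicate 2. Of the 3 genes 2 were called, near the share of all genes tested.

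Mir378a was 1.5-fold higher in replicate 2, with a log2 ratio of replicate 1 over replicate 2 of -0.58 (exact 95% interval -0.59 to -0.58). Its adjusted p in the exact binomial test was below the smallest number that the software holds. Mir378c was 1.44-fold higher in replicate 2, with a log2 ratio of -0.52 (-0.78 to -0.26, adjusted p = 0.000165 in the same exact test). Mir378b had a log2 ratio of -0.49 (-1.59 to 0.70, exact adjusted p = 0.527), so a difference was not detectable at its depth. Mir378d had a log2 ratio of -0.91 (-1.25 to -0.57, exact adjusted p = 3.0e-07), towards replicate 2.

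These sizes were ordinary for the libraries. Of the genes tested, 50.2% had a smaller ratio in either direction than Mir378a, 44.7% a smaller one than Mir378c and 41.7% a smaller one than Mir378b. The median log2 ratio of all genes tested was 0.06. Among the 75 genes with a mean of at least 1000 CPM, where counting error is small, it was -0.28 and 69 were called. Of those 75 genes, 29 had a larger ratio than Mir378a.

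With the common dispersion of edgeR in place of counting error the calls of both genes were lost (edgeR's exact test, adjusted p = 0.999 for each). That test called 0 of the 434 genes, and 24 had an unadjusted p under 0.05. The dispersion was estimated from these same 2 libraries taken as 1 group, so the differences under test also set it. The test therefore cannot decide whether a gene differs between the libraries. Scaling to total counts moved every log2 ratio by 0.30 towards replicate 1. Mir378a was then 1.22-fold higher in replicate 2, and Mir378c lost its call (exact binomial test, adjusted p = 0.132). All 3 genes kept their direction, while among all genes tested the calls went from 131 towards replicate 1 and 123 towards replicate 2 to 189 and 83.

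**Figure D3:**
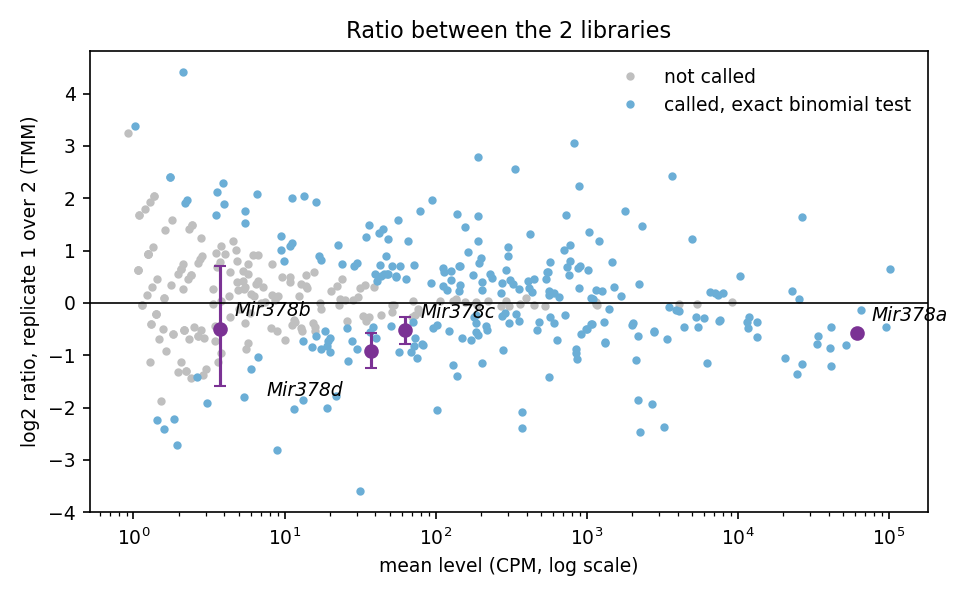
The log2 ratio of replicate 1 over replicate 2 with TMM scaling against mean level in CPM (log axis) for the 434 genes tested, blue where the exact binomial test called them and grey where it did not. The miR-378 genes are purple with exact 95% intervals. They lie below 0, towards replicate 2, within the cloud of the other genes, and the interval of Mir378b spans 0.

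The proportions of the miR-378 genes to one another were compared between the libraries by Fisher's exact test, over 6 pairs with Benjamini-Hochberg adjustment. Values are the ratio in replicate 1 over that in replicate 2. The ratio of Mir378a to Mir378c differed by a log2 value of -0.06 (95% interval -0.32 to 0.20, exact adjusted p = 0.983). The ratio of Mir378a to Mir378b differed by -0.11 (-1.29 to 1.01, exact adjusted p = 1). For Mir378b to Mir378c the value was 0.05 (-1.10 to 1.26, exact adjusted p = 1). The interval for Mir378a and Mir378c is the narrowest of the 6, and those that involve Mir378b are wide. The largest shift that involved Mir378d was in the ratio of Mir378b to Mir378d, 0.44 (-0.74 to 1.67, exact adjusted p = 0.910). The ratio of Mir378a to Mir378d differed by 0.33 (-0.01 to 0.67, exact adjusted p = 0.231).

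By likeness of the library ratio, over the 74 other genes of at least 1000 CPM, the nearest to Mir378a were Mir17, Mir100 and Mir7b. Their log2 ratios were -0.56, -0.63 and -0.53, against -0.58 for Mir378a. With 2 libraries this likeness rests on 1 ratio for each gene.

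Of the miR-378 hairpins, that of Mir378a had the most stable predicted fold for its length. RNAfold gave the Mir378a hairpin a minimum free energy of -38.5 kcal/mol, or -0.58 for each base. The median over the 339 detected genes was -0.43, and 93.2% of them were less stable for each base than Mir378a. Mir378b had -0.34 and Mir378c had -0.27 kcal/mol for each base, with 8.85% and 1.47% of the detected genes less stable. Mir378d had -0.32. In the folds of Mir378b and Mir378c printed above, 15 of the 20 and 15 of the 21 bases of the mature strand were paired. GC content was 54.5% in Mir378a, 57.6% in Mir378b and 46.5% in Mir378c, against a median of 50.0% in detected genes.

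Mir378a had a higher mean than every measured gene of a list of 17 other miRNAs reported to act in mitochondria or on messages of their proteins and regulators. Of the 16 found in the annotation, 13 were detected and 12 had a higher mean than Mir378c. The leading genes were Mir23a (40550 ± 10914 CPM) and Mir23b (33302 ± 7832 CPM), which target glutaminase, the mitochondrial enzyme of glutamine breakdown. Mir30a had 11454 ± 302 CPM and Mir195a 3666 ± 3828 CPM. Named outside the rule, after their values were seen, are Mir210 and Mir338. Mir210, the hypoxia miRNA that targets the iron-sulphur scaffold Iscu, had 221 CPM in replicate 1 and 55.1 CPM in replicate 2. Mir338, known for its action on Cox4i1, a subunit of cytochrome c oxidase, had 247 and 196 CPM. Mir1a-1 and Mir761 had 0 counts in both libraries, for which the limits are 0.556 CPM (replicate 1) and 0.990 CPM (replicate 2).

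Of the 14 genes tested in this list, 7 were called towards replicate 1 and 5 towards replicate 2, or 12 of 14, where the share over all genes tested was 58.5%. That share was 92% among the 75 genes with a mean of at least 1000 CPM. The part of level in the calls of this list was not tested. The median log2 ratio was 0.24, against 0.06 over all genes tested. Mir378a was above Mir23a and Mir23b in each library, by means 1.51-fold and 1.84-fold higher. All 3 were called higher in replicate 2.

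The second list held 6 miRNAs carried within genes of lipid, cofactor or hormone metabolism, as Mir378a is within Ppargc1b. Of these, 5 were detected. Mir139 in Pde2a, a cyclic nucleotide phosphodiesterase gene, had 22932 ± 5785 CPM, and Mir107 in Pank1, a gene of coenzyme A synthesis, had 2114 ± 797 CPM. Mir33 in Srebf2, the regulator of cholesterol synthesis, had 23.0 ± 3.11 CPM, below Mir378c and above Mir378b. Mir103-2 in Pank2 had 20.1 ± 6.13 CPM. Reads that matched both Mir103-2 and its copy Mir103-1 were counted for no gene, so the level of miR-103 may be higher. Of the 6 tested, 2 were called higher in replicate 1, 2 were called higher in replicate 2 and the median log2 ratio was 0.09. These 4 calls of 6 are near the 58.5% of all genes tested.

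**Figure D4:**
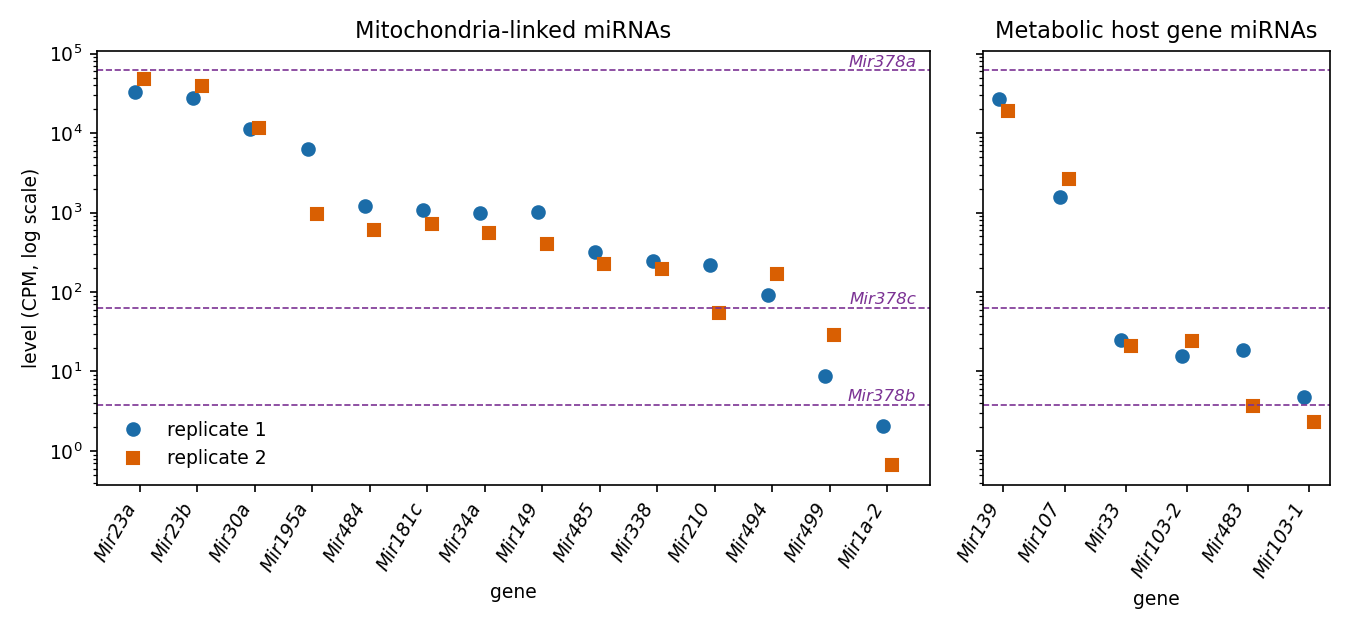
Level in CPM on a log axis of the genes of both lists with at least 1 count, for replicate 1 (blue circles) and replicate 2 (orange squares), with the mean levels of Mir378a, Mir378c and Mir378b as dashed purple lines. In both libraries all genes shown lie below the mean of Mir378a, with Mir23a nearest to it.

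Markers of tissues and cells that an adrenal sample can hold are given beside the library ratio of Mir378a, since Mir378a is known from muscle and fat as well. In bulk tissue, more cells of a type and more miRNA in each cell cannot be told apart. The brown fat list, led by Mir455, Mir193b, Mir196a-2 and Mir365-2, had 5 of 6 genes detected and had a summed level of 1885 CPM in replicate 1 against 1340 in replicate 2. Of its 6 genes tested 4 were called higher in replicate 1, and Mir196a-2 was called higher in replicate 2, as Mir378a was (log2 ratio -0.56). Over all genes tested 30.2% were called higher in replicate 1 and 28.3% in replicate 2. Striated muscle miRNAs, led by Mir206, Mir499 and Mir208b, had 3 of 9 genes detected, and summed to 492 and 544 CPM. Of the 4 tested, these 3 were called higher in replicate 2, as Mir378a was and as 28.3% of all genes tested were. Their log2 ratios were -0.36 for Mir206 (-0.06 with total counts), -2.0 for Mir499 and -1.86 for Mir208b. The other gene tested, Mir1a-2, leaned towards replicate 1 without a call (log2 ratio 1.07, 11 counts in replicate 1 and 2 in replicate 2). Among the muscle genes Mir1a-1 and Mir133a-2 had 0 counts in both libraries, and each has a near-identical copy whose reads may map to several places. Other list genes annotated in numbered copies, such as Mir365-1 and Mir365-2, may share this limit, as may the sums that hold them.

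The summed levels of the remaining lists, in CPM, were all higher in replicate 1. CPM uses total counts, while the log2 ratios given beside the sums use TMM, which moves them by 0.30 towards replicate 2. With total counts the log2 ratio of Mir378a was -0.28, and with TMM the neuroendocrine list had a median of 0.04. The endothelial pair, Mir126a with Mir126b, summed to 133214 and 69289 CPM. The neuroendocrine list, led by Mir375, Mir7b, Mir137 and Mir7-1, had 5 of 5 genes detected and 32103 and 25898 CPM. Most of that sum was Mir375 (log2 ratio 0.08), while Mir7b (-0.53) and Mir137 (-0.51) were called higher in replicate 2. The liver, kidney and gut list (Mir122, Mir192 and Mir194-2 detected) summed to 1639 and 204 CPM, and the red-cell list (Mir451a, Mir144 and Mir486) to 1210 and 576 CPM. The part of any of these cells in the ratio of Mir378a was not tested.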

How the data were processed

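MicroRNA-seq of adrenal RNA gave 1 group of 2 libraries, numbered as biological replicates 1 and 2. Each library has a deposited table of raw counts of reads, by miRNA gene, which the authors placed on mm10 with GENCODE M21 genes, per the notes filed with it. How reads were trimmed, aligned and counted is not given in the sources used here. The 3 unnamed columns were read as counts without strand, sense counts and antisense counts, because each column with its summary entries adds up to the same total. The sense column is the one that held the reads of Mir378b, Mir378c and Mir378d, which have no miRNA gene on their other strand. The 4 summary entries, which name no gene, stayed out of library sizes and tests. No gene's count includes multimapped reads. Without molecular identifiers reads are not independent molecules, so intervals cover counting error only.

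Levels are CPM, a sense count scaled to a library total of 1000000. Detection required 10 counts in both libraries. The depth differed 1.78-fold, so that 1 count was worth 0.185 CPM (replicate 1) or 0.330 CPM (replicate 2). Ratios used TMM library sizes (edgeR 4.0.16, R 4.3.3), 0.5 prior counts, and genes with 10 or more counts in all. The test for each gene was the exact binomial test, two-sided (scipy 1.17.1), and p-values were adjusted over all tested genes by Benjamini-Hochberg (statsmodels 0.14.6). With 1 group no contrast between conditions could be fitted. Pairs of miR-378 genes were compared by Fisher's exact test. Hairpins were folded with RNAfold 2.7.2 at its default settings. Alternatives were other scalings (DESeq2 1.42.0 size factors, total counts), count minimums, the prior, counts without strand, thinning, edgeR's common dispersion, and leaving out a library or Mir126a.

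The miR-378 genes, the gene lists and the tests were chosen with earlier results of these data known. Of 53 list entries 52 matched the annotation (Mir696 did not, and Mir7a-1 and Mir7a-2 were matched as Mir7-1 and Mir7-2). The rule for named genes took the miR-378 genes and any miRNA gene on their opposite strand. It also took the 3 genes on either side of Mir378a in mean level, the 3 genes of at least 1000 CPM nearest to it in library ratio, and the 4 highest detected genes of each list. Mir210, Mir338, Gm27881 and Mir1a-2, list genes named for their counts of 0, and list genes named only as copies fall outside it.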

Additional observations from a re-analysis of the deposited data

Results flagged for a closer look

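The antisense column, which the comparisons do not use, held a signal at Gm25301 above the limit that a count of 0 allows. This gene had 299149 antisense counts in replicate 1 and 204161 in replicate 2. Those are exactly the sense counts of Mir378a, which lies on the opposite strand.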

How the results depend on the processing

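Of 60 values recomputed under alternatives, 43 counted as kept. Library ratios had to keep their direction and call, and levels, ranks and shares to move by less than the spread between the libraries. The number of genes called had to stay within a set fold of the main number, whatever their directions. No library ratio changed direction. Another count minimum or the common dispersion leaves a ratio as it was, so those settings could not change its direction. Leaving out 1 of 2 libraries always moves a level or share by less than their SD, so those values could only be kept. The share of Mir378a without Mir126a could not move either. Counts without strand gave Mir378a a level of 0 CPM, a rank of 744 and 0% of miR-378 counts, with no ratio, and gave Mir378b 4.65 and Mir378c 78.6 CPM. Dividing by all reads gave Mir378a, Mir378b and Mir378c 24259, 1.48 and 24.9 CPM. Without Mir126a in the totals Mir378b had 4.16 CPM, Mir378c 70.2 CPM, and Mir378a ranked 3, as it did with counts per annotated base. Without replicate 1 or replicate 2 in turn the rank of Mir378a ran from 3 to 4. With the common dispersion the log2 ratios of Mir378a (-0.58) and Mir378c (-0.52) lost their calls, and 0 genes were called. That dispersion came from the same differences between the libraries, so the loss of calls decides nothing. With total counts the log2 ratio of Mir378c was -0.22 and its call was lost (exact binomial test, adjusted p = 0.132, over a range of 0.000110 to 0.999 across its alternatives). With a minimum of 100 counts Mir378b was not tested. No paired analysis was possible because there was only 1 group. Depth limited Mir378b most, with 19 and 12 counts.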

Other observations

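One annotated miRNA gene outside the Mir378 names, listed after its values were seen, shares 16 unbroken bases with the hairpins of Mir378a and Mir378d and 15 with those of Mir378b and Mir378c. This gene, Gm27881 (chromosome 1, 13262198 to 13262279, plus strand), had 8 sense counts in replicate 1 and 14 in replicate 2. Its log2 ratio of replicate 1 over replicate 2 was -1.91 (exact binomial test, adjusted p = 0.00402), towards replicate 2 as for the miR-378 genes.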
